A study of Homo sapiens with 6 samples.

Results

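The GADD45 family of stress sensors was described here by 5 of the 20422 genes in the count table: GADD45A, GADD45B and GADD45G, which encode the 3 GADD45 proteins, GADD45GIP1, whose product binds them, and MAP3K4, a kinase that they activate. The genes were chosen by symbol, and the family was selected on the difference between ORF-Flag and NC libraries in these same counts. That difference is therefore given for the 5 genes as a description, and no test of it is read as a result. Of the 5 genes, 4 passed the filter on low counts, and GADD45G did not.

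RNA-Seq was carried out on HepG2, an established line derived from a human liver cancer, to compare cells that overexpressed the microprotein APPLE with control cells. The 3 NC libraries came from cells given the vector alone, and the 3 ORF-Flag libraries from cells given the APPLE reading frame of the lncRNA ASH1L-AS1 with a Flag tag. The labels speak of plasmids, whereas the methods of the study describe stable lines made with lentivirus and selected with puromycin, and neither states whether the libraries of a group came from separate cultures, so p-values measure only the spread between these samples. NC replicates 1, 2 and 3 held 20081203, 24907524 and 30088457 counts in total, against 26866148, 17494668 and 27015836 for ORF-Flag, so 3 counts correspond to between 0.1002 and 0.172 CPM, the count scaled to a common library size. ASH1L-AS1 was not analysed here, and the labels were not checked against the construct.

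GADD45 proteins are small, acidic proteins without a known enzymatic activity of their own. Their genes are switched on by DNA damage, cytokines and other stresses, and the proteins bind MAP3K4 at the head of the p38 and JNK kinase chains, CDK1 with cyclin B1, PCNA, the CDK inhibitor p21, and enzymes of active DNA demethylation. GADD45GIP1, also called CRIF1, is a part of the large subunit of the mitochondrial ribosome, and in liver GADD45B is known as an early gene of regeneration.

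The labelled cell type was checked against its markers. Of 10 hepatocyte and hepatoblast markers, 10 passed the filter, with a summed level between 21484 and 22529 CPM per library. APOB was the most abundant in each library but ORF-Flag replicate 1, where ALB was at 7583 CPM, and lay at 7692 to 8149 CPM in NC and 7309 to 7739 CPM in ORF-Flag. FGB alone among them passed the test, at a log2 fold change of 0.14 ± 0.04 (SE) with an adjusted p = 0.0232 in edgeR's quasi-likelihood test with Benjamini-Hochberg adjustment. Of 4 fibroblast markers none passed the filter, and their summed level was at most 0.115 CPM in a library. The leukocyte markers PTPRC and CD3E had 0 counts in each of the 6 libraries, while the summed level of 4 leukocyte markers, mostly LYZ, was 1297, 1438 and 1434 CPM in NC and 1526, 1628 and 1528 CPM in ORF-Flag. LYZ rose by 0.17 ± 0.04 on the log2 scale (adjusted p = 0.0112, edgeR quasi-likelihood with Benjamini-Hochberg adjustment). CD68, the other leukocyte marker that passed the filter, overlapped between the groups, with a log2 fold change of -0.03 ± 0.06, so the difference in the sum came from LYZ. The 3 endothelial markers, mostly PECAM1, summed to 4.75, 4.16 and 5.01 CPM in NC and 6.55, 5.51 and 6.26 CPM in ORF-Flag. PECAM1 alone among them passed the filter, and its log2 fold change of 0.39 ± 0.13 missed the threshold (adjusted p = 0.0958, edgeR quasi-likelihood with Benjamini-Hochberg adjustment). The leukocyte and endothelial sums were higher in ORF-Flag, as were GADD45A and GADD45B below, and their part in those differences was not tested.

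In GENCODE v29 on GRCh38, the 3 GADD45 genes are short genes on separate chromosomes. GADD45A lies at chr1:67685061-67688338, GADD45B at chr19:2476122-2478259 and GADD45G at chr9:89605013-89606555, each on the plus strand. Their longest coding transcripts have 4 exons each and 495, 480 and 477 coding bases without the stop codon. The coding sequences were 61.3% identical between GADD45A and GADD45B, 63.6% between GADD45A and GADD45G, and 67.1% between GADD45B and GADD45G in a global alignment. None of the 31-base stretches of these transcripts occurred in a transcript of another gene, on either strand, so reads of that length were not shared between them in the annotation. GADD45GIP1 lies at chr19:12953119-12957236 on the minus strand and MAP3K4 at chr6:160991727-161117385 on the plus strand, with 666 and 4824 coding bases. Exons of MAP3K4 and, over a larger share of its length, GADD45GIP1 overlap an annotated gene on the opposite strand. The strand setting of the counting is not given in the sources used here, so reads from opposite strands cannot be told apart there, and the values of both genes, GADD45GIP1 more than MAP3K4, are uncertain.

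RefSeq promoter sequences (GRCh38.p14, 250 bases before to 50 after the start) were matched for 4 of the 5 genes, all but GADD45A. The stretches upstream of the starts of GADD45B and GADD45G are shown because these paralogs had very different levels in HepG2. Both are on the plus strand, from 130 to 11 bases before the start, at chr19:2475997-2476116 for GADD45B and chr9:89604882-89605001 for GADD45G. Capitals mark matches to the motifs searched on both strands, which were the TATA box TATAAA, the CCAAT box CCAAT, the E-box CACGTG, the GC box GGGCGG, the AP-1 site TGACTCA, the cyclic AMP response element (CRE) TGACGTCA and the C/EBP-ATF element TGATGNAA.
GADD45B: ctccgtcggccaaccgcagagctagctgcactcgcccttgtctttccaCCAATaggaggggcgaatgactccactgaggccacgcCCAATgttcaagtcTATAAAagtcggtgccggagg
GADD45G: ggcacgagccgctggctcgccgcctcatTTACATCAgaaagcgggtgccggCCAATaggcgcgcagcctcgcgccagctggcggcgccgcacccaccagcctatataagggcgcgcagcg
The GADD45B stretch held TATAAA at 31 to 26 bases before the start, and CCAAT at 82 to 78 and at 45 to 41 bases before it. The GADD45G stretch held 1 CCAAT and, on the minus strand, 1 C/EBP-ATF element at 102 to 95 bases before the start. It did not hold the exact letters TATAAA. The similar letters tatataag stand near its downstream end, but were not among the motifs searched and are unmarked. Absence of a TATA box from GADD45G is therefore not read. Over the whole 300-base windows, both also held 1 E-box farther upstream, and neither held the GC box, AP-1 or CRE letters. Among 35116 RefSeq promoters of the same length, 11.5% held the TATA box letters, 34.6% the CCAAT box, 7.26% the E-box, 44.95% the GC box, 4.95% the AP-1 site, 1.85% the CRE and 3.62% the C/EBP-ATF element. A match describes letters in the window and does not show that a factor was bound.

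The study also designed a qPCR primer pair for GADD45B, shown because it fixes which part of the transcript such an assay reads.
GADD45B forward primer: tgaatgtggacccagacagc
GADD45B reverse primer: actggatgagcgtgaagtgg
Both primers matched 4 of the 7 annotated GADD45B transcripts. In the longest coding transcript, they enclose 99 bases, from base 372 to base 470, inside the coding sequence and across the junction of exons 2 and 3 (chr19:2476624-2477120, GRCh38).

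Levels between genes were compared as CPM per kilobase of merged exons, a scale meant to take out gene length. Merged exons exceeded the longest coding transcript unequally, with 2138 against 1373 bases for GADD45B and 2069 against 1496 for GADD45A. For MAP3K4 they were 7522 against 5490 bases, and for GADD45GIP1 both were 1782. Ratios and shares between genes therefore depend on this choice of length. The lengths are those of GENCODE v29, and the annotation used for counting, which may differ from it, is not given in the sources used here. GADD45A was the most abundant of the 5 genes on this scale, at 20.8 ± 0.251 CPM per kb (SD, n = 3) in NC and 24.5 ± 0.412 in ORF-Flag. GADD45GIP1 followed at 14.5 ± 0.795 and 14.1 ± 0.711 CPM per kb, and MAP3K4 at 7.33 ± 0.362 and 7.25 ± 0.230. GADD45B was lower, at 1.80 ± 0.363 CPM per kb in NC and 2.82 ± 0.194 in ORF-Flag, and GADD45G was at or below 0.0845 CPM per kb in each library. The libraries of neighbouring genes in this order did not overlap, so the order was the same in all 6 libraries. Among the 3 GADD45 genes, GADD45A made up between 88.8% and 92.7% of the summed level per kb of a library. The ratio of GADD45A to GADD45B per kb was 9.39, 12.7 and 13.2 in NC and 9.42, 8.72 and 7.97 in ORF-Flag, and the groups overlapped through NC replicate 1.

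**Figure D1:**
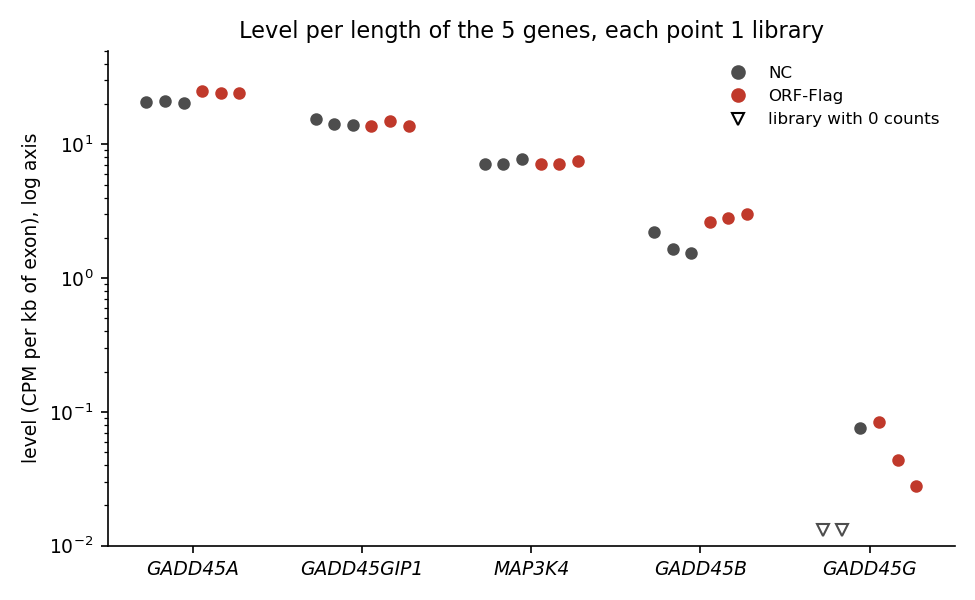
Level of each of the 5 genes in CPM per kb of exon (log axis), with 1 point per library, NC in grey and ORF-Flag in red; open triangles at the lower edge mark libraries with 0 counts. GADD45A is highest and GADD45G lowest in each library, and GADD45B lies between 1.55 and 3.03 CPM per kb.

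GADD45B, the family member known for induction by TGF-beta and NF-kappaB signalling, had 96, 88 and 99 counts in NC replicates 1, 2 and 3 and 152, 104 and 175 counts in ORF-Flag replicates 1, 2 and 3. As levels normalised to library size with TMM factors, these were 4.75, 3.52 and 3.31 CPM in NC and 5.66, 5.97 and 6.48 CPM in ORF-Flag. The 3 ORF-Flag libraries lay above the 3 NC libraries, and NC replicate 1 came closest to them. The exact Poisson 95% interval of NC replicate 1 (3.84 to 5.80 CPM) overlapped that of ORF-Flag replicate 1 (4.80 to 6.63 CPM), where such intervals cover counting error only. The log2 fold change was 0.67 ± 0.14 (SE; 95% interval 0.37 to 0.96), a level 1.59-fold that of NC. In bulk RNA, a change in the share of cells with the transcript and a change in the RNA per cell cannot be told apart. The spread within groups was 20.1% of the mean in NC, against 10.3% from counting alone, and 6.86% in ORF-Flag, against 8.34% from counting. Leaving out 1 library moved the log2 fold change between 0.56 (without NC replicate 3) and 0.83 (without NC replicate 1).

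GADD45A, the member first found as a gene induced by DNA damage, had 872, 1083 and 1268 counts in NC and 1386, 878 and 1349 counts in ORF-Flag. Its level was 43.1, 43.3 and 42.4 CPM in NC and 51.6, 50.4 and 49.9 CPM in ORF-Flag. The groups were separate, with less than 1 CPM between the highest and lowest NC library. The log2 fold change was 0.24 ± 0.05 (SE; 95% interval 0.14 to 0.34), a level 1.18-fold that of NC, smaller than the change of GADD45B, although the difference between both changes was not tested. The spread within groups was 1.21% of the mean in NC and 1.68% in ORF-Flag, below the 3.05% and 2.88% that counting alone would give.

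GADD45G, the third paralog, had 0, 0 and 3 counts in NC and 3, 1 and 1 counts in ORF-Flag. No library exceeded 3 counts, so the gene was not tested and no fold change is given. At this depth, the upper ends of its exact Poisson 95% intervals lay between 0.148 CPM (NC replicate 2) and 0.326 CPM (ORF-Flag replicate 1).

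GADD45GIP1, the mitochondrial ribosome protein, had a level of 27.5, 25.2 and 24.9 CPM in NC and 24.3, 26.5 and 24.4 CPM in ORF-Flag, from 462 to 746 counts per library. The groups overlapped, and the highest library was NC replicate 1. The log2 fold change was -0.05 ± 0.07 (SE; 95% interval -0.18 to 0.09), and lay between -0.0047 (without NC replicate 1) and -0.084 (without ORF-Flag replicate 2) when 1 library was left out.

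MAP3K4, the kinase through which GADD45 proteins feed into p38 and JNK, had a level of 53.8, 53.3 and 58.3 CPM in NC and 53.7, 53.4 and 56.5 CPM in ORF-Flag, from 929 to 1744 counts. The groups overlapped, and replicate 3 was the highest library in each group. The log2 fold change was -0.02 ± 0.05 (SE; 95% interval -0.12 to 0.08), and its sign turned without NC replicate 3, to 0.03 ± 0.05.

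**Figure D2:**
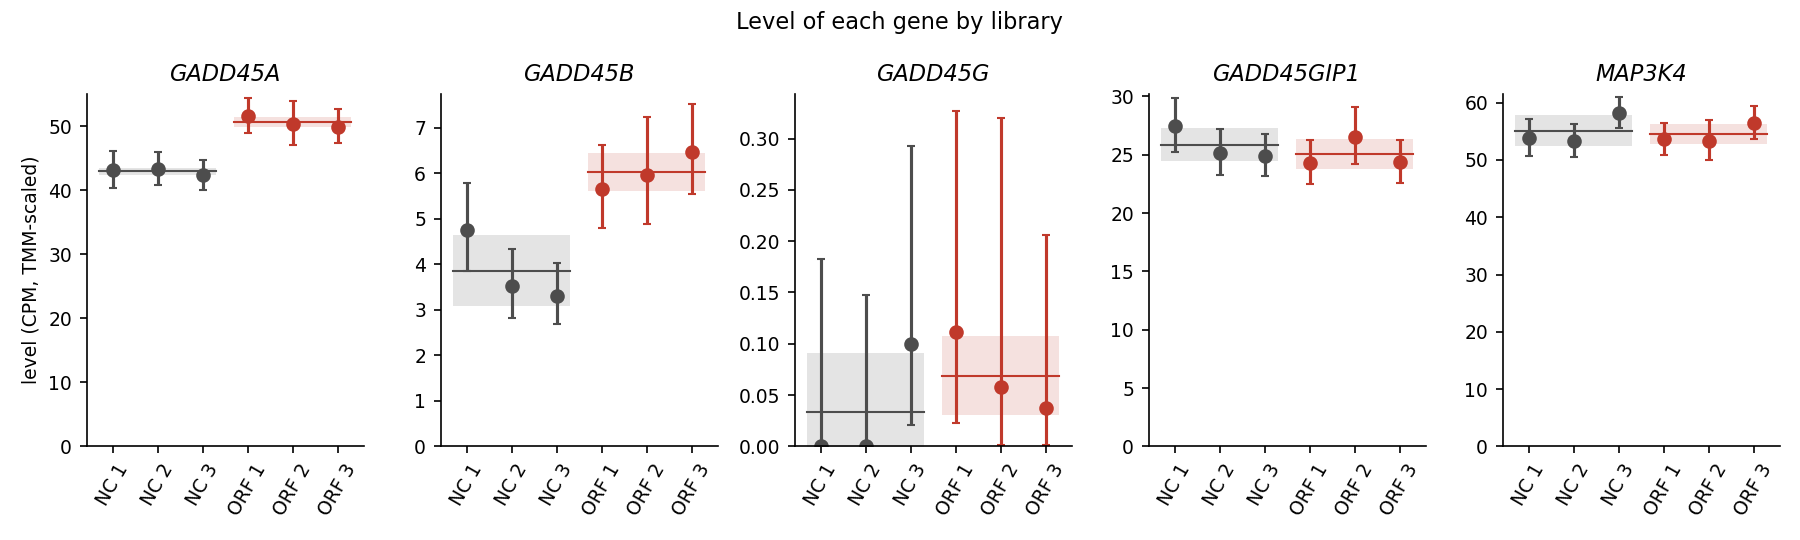
Level of each gene in CPM by library (ORF stands for ORF-Flag), with exact Poisson 95% intervals as bars, the group mean as a line and 1 SD as a shaded band; each panel has its own axis from 0. GADD45A and GADD45B lie higher in the ORF-Flag libraries, GADD45GIP1 and MAP3K4 overlap, and GADD45G has at most 3 counts in a library.

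In the fit across all genes, 2 of the 4 members that passed the filter, GADD45A and GADD45B, fell among the genes with an adjusted p below 0.05, both higher in ORF-Flag, beside 4.45% of all 12386 genes tested (2.47% higher and 1.98% lower). The groups did not overlap for the same 2 genes, with ORF-Flag above, beside 11.5% of all genes with ORF-Flag above NC and 10.9% with ORF-Flag below. Since the family was selected on this contrast, its members were favoured in both counts, and nothing is read from them.

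**Figure D3:**
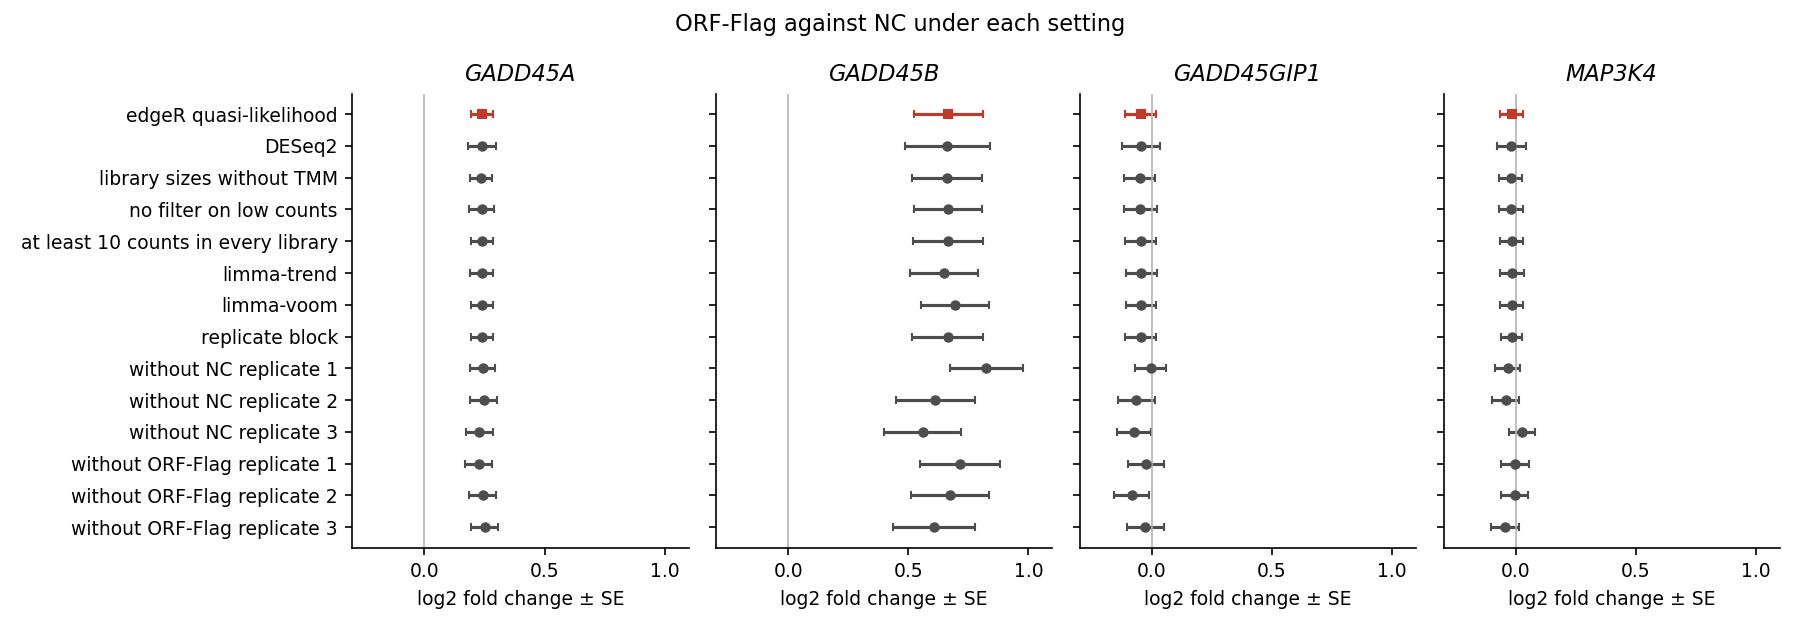
Log2 fold change of ORF-Flag against NC (points) with its standard error (bars) for the 4 genes tested, from edgeR's quasi-likelihood test (red) and 13 alternative settings (grey). GADD45A stays between 0.22 and 0.25 and GADD45B between 0.56 and 0.83, while MAP3K4 lies on either side of 0.

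Genes were compared with GADD45B by the Pearson correlation of log2 CPM over the 6 libraries. This measure compares patterns, not amounts, and is a description that also holds the difference between groups. The genes most like GADD45B in pattern were MVK (r = 0.995), KRT19 (0.990), TANC1 (0.988), ZFYVE26 (0.987) and DLG3 (0.986). The same measure for GADD45A gave ETV4 (r = 0.996), AVL9 (0.993), HSD17B7 (0.993), SLC7A6 (0.992) and RCAN1 (0.992). The lists had no gene in common, and each gene named had a smaller log2 fold change than GADD45B, from 0.10 (MVK) to 0.34 (RCAN1). With 6 libraries, 57 genes correlated with GADD45B and 115 with GADD45A at r above 0.95.

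The surroundings of the family were described by 142 genes in 8 lists, of which 136 passed the filter. The lists were drawn up with earlier results of these data known. The shares of single lists that passed are therefore a description, and an excess over all genes is not read as a result. In edgeR's quasi-likelihood test with Benjamini-Hochberg adjustment over all genes, 6 of the 136 passed an adjusted p below 0.05, 5 higher and 1 lower in ORF-Flag. This share, 4.41%, was close to the 4.45% of all genes tested, and the median log2 fold change of the 136 genes was 0.01, against 0.00 for all genes. The genes that passed were 4 transcription factors known to act on GADD45 genes, the CDK inhibitor gene CDKN1A and the growth arrest gene PPP1R15A. ORF-Flag lay above NC without overlap in 15 of the 136 genes and below in 10, beside 11.5% and 10.9% of all genes.

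Among 25 transcription factors that act on GADD45 genes, 4 passed in edgeR, beside 4.45% of all genes. Of the 4, 3 were higher, and the median log2 fold change of the list was 0.05. DESeq2 called 4, limma-trend 5 and limma-voom 3, beside 428, 594 and 527 of all genes. ATF3, a stress-induced factor of the ATF/CREB group, was at 4.75, 4.92 and 4.54 CPM in NC and 8.82, 8.27 and 9.81 CPM in ORF-Flag. It rose by 0.93 ± 0.12 on the log2 scale in 3 of 3 ORF-Flag libraries (adjusted p = 1.6e-05, edgeR quasi-likelihood with Benjamini-Hochberg adjustment). DDIT3, also named GADD153 or CHOP, was at 17.6, 17.1 and 17.8 CPM in NC and 20.4, 24.2 and 22.9 CPM in ORF-Flag, with a log2 fold change of 0.36 ± 0.07 (adjusted p = 0.00466, same test). Both genes passed in 13 of 13 alternatives. JUN, a subunit of AP-1, was at 60.6, 58.8 and 57.5 CPM in NC and 62.0, 67.7 and 72.1 CPM in ORF-Flag, with ORF-Flag replicate 1 close to NC. Its log2 fold change was 0.19 ± 0.05 (edgeR quasi-likelihood, Benjamini-Hochberg adjusted p = 0.0301), and the call was lost without NC replicate 2 (0.19), ORF-Flag replicate 2 (0.19) or ORF-Flag replicate 3 (0.13), with adjusted p between 0.00361 and 0.253 over the alternatives. MYC, described as a repressor of GADD45A, fell from 188, 172 and 175 CPM to 162, 160 and 165 CPM, a log2 fold change of -0.13 ± 0.04 (edgeR quasi-likelihood, Benjamini-Hochberg adjusted p = 0.0416). The MYC call was lost with limma-voom (-0.13), without NC replicate 1 (-0.09), and without ORF-Flag replicate 1 (-0.13), 2 (-0.12) or 3 (-0.14), with adjusted p between 0.0124 and 0.157 over the alternatives. EGR1, an immediate early factor outside the rule for named genes and chosen after its values were seen, was at 3.07, 2.92 and 3.21 CPM in NC and 4.36, 4.25 and 4.33 CPM in ORF-Flag. Its log2 fold change of 0.49 ± 0.14 missed the threshold in edgeR's quasi-likelihood test (Benjamini-Hochberg adjusted p = 0.0519) and passed with limma-trend and with no filter on low counts.

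Of the other genes with GADD or DDIT names, 2 of the 3 tested passed, beside 4.45% of all genes, and DDIT3 counts in both lists. PPP1R15A, or GADD34, which directs phosphatase PP1 to eIF2-alpha, was at 42.9, 42.5 and 45.2 CPM in NC and 63.9, 61.5 and 61.1 CPM in ORF-Flag. The gene rose by 0.51 ± 0.05 on the log2 scale in 3 of 3 ORF-Flag libraries (adjusted p = 1.2e-07, edgeR quasi-likelihood with Benjamini-Hochberg adjustment) and passed in 13 of 13 alternatives. These genes share names with the GADD45 family by how they were first isolated and are not its paralogs.

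Of 7 cell cycle partners, 1 passed, beside 4.45% of all genes. CDKN1A, which encodes the CDK inhibitor p21, a binding partner of GADD45 proteins, was at 42.5, 37.6 and 40.3 CPM in NC and 51.7, 51.5 and 53.1 CPM in ORF-Flag. It rose by 0.38 ± 0.05 on the log2 scale (adjusted p = 5.7e-05, edgeR quasi-likelihood with Benjamini-Hochberg adjustment), and this call held in 13 of 13 alternatives. CCNB1, encoding the cyclin of the CDK1 complex that GADD45A can inhibit, was at 239, 223 and 237 CPM in NC and 211, 214 and 218 CPM in ORF-Flag. Its log2 fold change of -0.12 ± 0.04 missed the threshold in edgeR's quasi-likelihood test (Benjamini-Hochberg adjusted p = 0.0523) and passed in 5 of 13 alternatives, with adjusted p between 0.0229 and 0.202. The median log2 fold change of the 7 genes was -0.04.

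**Figure D4:**
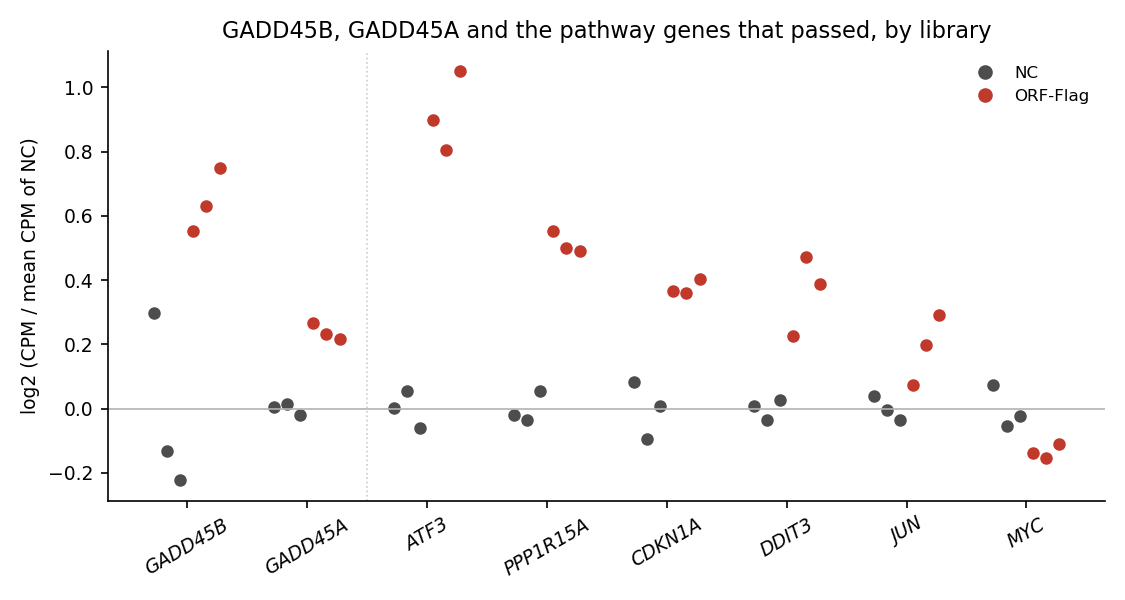
Log2 ratio of each library's CPM to the mean CPM of NC for GADD45B and GADD45A (left of the dotted line) and for the 6 pathway genes that passed an adjusted p below 0.05, with NC in grey and ORF-Flag in red. The ORF-Flag libraries of ATF3 lie highest, those of MYC lie below NC, and ORF-Flag replicate 1 of JUN comes closest to the NC mean.

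The kinases around MAP3K4 gave no call. Of 14 other MAP3K genes tested, 0 passed in edgeR's quasi-likelihood test, in DESeq2, limma-trend or limma-voom, and 0 had an unadjusted p below 0.05, which 18.5% of all 12386 genes had in edgeR. MAP3K20, or ZAK, which senses stalled ribosomes, had a mean level of 5.36 ± 0.486 CPM (SD) over the 3 NC libraries and 6.33 ± 0.581 CPM over the 3 ORF-Flag libraries. The log2 fold change of MAP3K20 was 0.25 ± 0.13, and 0.17 without ORF-Flag replicate 1. MAP3K11, a mixed-lineage kinase, had a log2 fold change of -0.09 ± 0.05, and of -0.04 without NC replicate 1. In the p38 and JNK chain below MAP3K4, 0 of 15 genes tested passed, by edgeR or by DESeq2, limma-trend or limma-voom, and 1 had an unadjusted p below 0.05 in edgeR. That gene was MAP2K6, a direct substrate of MAP3K4 that activates p38, at 8.90, 9.01 and 10.2 CPM in NC and 7.45, 7.52 and 8.33 CPM in ORF-Flag. Its log2 fold change was -0.27 ± 0.10 (edgeR quasi-likelihood, Benjamini-Hochberg adjusted p = 0.138). MAP2K4, which activates JNK, had a log2 fold change of 0.15 ± 0.08, which was 0.06 without NC replicate 1 and 0.22 without NC replicate 2. The medians of both lists were 0.01 and 0.00, near that of all genes.

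Partners in DNA demethylation and repair were likewise without a call, with 0 of 16 genes tested passing by edgeR or by DESeq2, limma-trend or limma-voom. An unadjusted p below 0.05 in edgeR was found for 18.5% of all genes and for 2 of this list. These were TET2, which oxidises 5-methylcytosine, at a log2 fold change of 0.17 ± 0.08, and the glycosylase gene NEIL2, at -0.23 ± 0.09. Among nuclear receptor partners of GADD45 proteins, 0 of 7 genes tested passed by edgeR, by limma-trend, by limma-voom or by DESeq2, and 0 had an unadjusted p below 0.05. HNF4A, the hepatocyte receptor, was at 152, 148 and 139 CPM in NC and 139, 139 and 145 CPM in ORF-Flag. PPARG had a log2 fold change of 0.07 ± 0.07, which was 0.05 without NC replicate 1 and 0.11 without NC replicate 2.

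GADD45GIP1 was set beside the other proteins of the large subunit of the mitochondrial ribosome. Of 50 such genes tested, 0 passed, by edgeR or by DESeq2, limma-trend or limma-voom. In edgeR, 6 had an unadjusted p below 0.05, beside 18.5% of all genes. The median log2 fold change was 0.02, and single genes ranged from -0.15 to 0.16, a range that held the -0.05 of GADD45GIP1. MRPL45 (0.12 ± 0.04) and MRPL58 (0.16 ± 0.06) had the smallest p-values, with Benjamini-Hochberg adjusted p = 0.0797 and 0.102 in edgeR's quasi-likelihood test. Without NC replicate 3, 5 of these genes passed, beside 1058 of all genes, against 0 and 551 in the main fit. Of the 5, MRPL33, MRPL45, MRPL50 and MRPL58 were higher and MRPL4 lower. MRPL33, MRPL50 and MRPL4 lie outside the rule for named genes and were chosen after their values were seen. MRPL45 also passed with no filter on low counts (Benjamini-Hochberg adjusted p = 0.0457) and with a replicate block (0.0485), both in edgeR's quasi-likelihood test, and its adjusted p lay between 0.00608 and 0.218 over all alternatives, the other tools included.

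**Figure D5:**
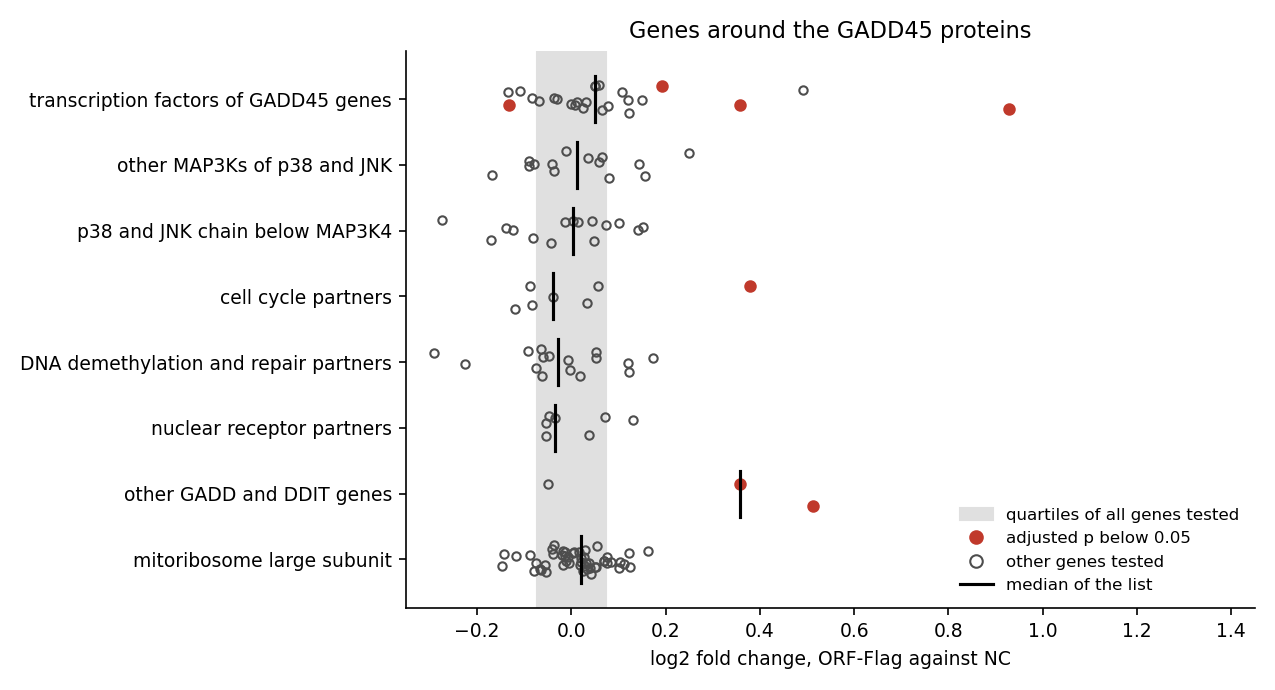
Log2 fold change of ORF-Flag against NC for each gene tested in the 8 lists, spread vertically at random within a list, with genes past an adjusted p below 0.05 filled in red, list medians as black lines and the quartiles of all genes tested as a grey band (-0.07 to 0.07). Filled points lie in 3 lists, and DDIT3 appears in 2 of them.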

How the data were processed

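RNA-Seq reads of 6 HepG2 libraries had been counted per gene, and the authors deposited these raw counts for 20422 genes. The submitters' processing notes name cutadapt 1.11, HISAT2 2.1.0, featureCounts 1.6.0, edgeR and GRCh38, while the annotation release and the strand setting are not given in the sources used here. Columns were matched to samples by the sample labels, and 20421 identifiers were matched to a symbol.

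Counts were analysed in R 4.3.3 with edgeR 4.0.16, using filterByExpr (12386 genes kept), TMM factors, glmQLFit and glmQLFTest, and Benjamini-Hochberg adjustment over all genes tested. Standard errors follow from the F statistic of that test, and intervals are at 95%. The common biological coefficient of variation was 0.0389. Pairs of libraries of a group differed by more than sampling noise, with a chi-square between 2.39 and 5.23 per degree of freedom. The procedure was tested on simulated data.

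Alternatives were DESeq2 1.42.0, limma-trend (prior count 2) and limma-voom in limma 3.58.1, library sizes without TMM, no filter, at least 10 counts in every library, a replicate block, and each library left out in turn. The members and lists were chosen with earlier results of these data known. Genes were named by a rule: all 5 members, up to 4 genes per list past an adjusted p below 0.05, filled up to 2 by the smallest p, the 5 genes most correlated with GADD45A and with GADD45B, and the cell type markers. Lengths, positions and 31-base stretches came from GENCODE v29 (GRCh38), promoters from RefSeq (GRCh38.p14). Figures were drawn with matplotlib 3.10.9.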

Additional observations from a re-analysis of the deposited data

How the results depend on the processing

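The count of all genes past an adjusted p below 0.05 (551) was 428 with DESeq2 and 824 with no filter, the extremes over tools, filters and scalings, and ran from 199 to 1058 when 1 library was left out, lowest without ORF-Flag replicate 3 and highest without NC replicate 3. The count of pathway genes (6) lay between 5 and 9 over the former and between 4 and 11 over the latter, with 11 without NC replicate 3. The count of members past the threshold (2) was 2 in each tool, filter and scaling and between 1 and 2 with 1 library left out. GADD45B missed the threshold without NC replicate 2 (log2 fold change 0.61) or ORF-Flag replicate 3 (0.61), against 0.67 in the main fit. As the family was selected on this contrast, the member counts say nothing of stability. The sign of the MAP3K4 log2 fold change turned without NC replicate 3, at 0.027 in a range from -0.045 to 0.027 over the libraries left out, with no call in any setting. The cause of these shifts was not tested. The main fit took the replicate numbers as names only. Deviations of same-numbered NC and ORF-Flag libraries correlated weakly, at 0.0666, 0.0266 and 0.0448, although each library but ORF-Flag replicate 2 correlated best with its own number. These values do not settle whether the numbers pair the samples. With the replicate block, 731 genes, 8 pathway genes and 2 members passed. At 0 to 3 counts per library, GADD45G was not tested and nothing is read of a change in it, while GADD45B rests on 88 to 175 counts.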
